A study of Mus musculus with 29 samples.

Results

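Molecular chaperones were followed in the hypothalamus of mice carrying a young mammary tumour, as ratios of tumour over control RNA. The genes were those whose symbol in the array annotation begins with Hspa, Hspb, Hspd, Hspe, Hsph or Hsp and a digit, with Dnaja, Dnajb or Dnajc, with Cct and a digit, or with Pdia. This rule, which uses no measured value, gave 49 of the 8726 genes named on the arrays, read by 51 probes. They fell into 9 families, with 2 Hsp90, 5 Hspa, 7 Hspb, 2 Hspd or Hsph, 2 Dnaja, 10 Dnajb, 14 Dnajc, 4 Cct and 3 Pdia genes. The Hspb family as counted here includes Hsp25-ps1, a pseudogene of the small heat shock protein gene Hspb1, and a pseudogene probe may also take up RNA of its parent gene.

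The animals were female BALB/c mice, 8 weeks old, and the hypothalamus was taken 18, 72 or 192 h after a subcutaneous injection. One group received 100000 4T-1 cells, a transplantable mammary carcinoma line of the same strain, in 100 µl of PBS, and the control group received 100 µl of PBS alone and was killed at the same times. Tumour and PBS RNA were hybridized together on each 2-colour array, so a log2 ratio above 0 means more signal from the tumour-bearing animals. This direction is likely rather than settled, because it assumes that the scanner channels follow the order of the labelled dyes. Each time had 3 replicates, on 16 arrays in all, with replicate numbers as in the labels (3, 4 and 5 at 18 h, and 1, 3 and 4 at 72 and 192 h). The labels do not say whether a replicate pools animals, so p-values measure only the spread between these samples. In RNA of whole tissue, fewer cells of a type and less RNA per cell cannot be told apart.

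Chaperones bind unfolded or newly made proteins and keep them from aggregating. Hsp70 proteins (Hspa) work in cycles driven by ATP, which J-domain proteins (Dnaja, Dnajb, Dnajc) start and exchange factors reset, while Hsp90 matures receptors and kinases and the ring-shaped chaperonin built from Cct subunits folds actin and tubulin. Protein disulfide isomerases (Pdia) act in the endoplasmic reticulum, and small heat shock proteins (Hspb) hold unfolded proteins without using ATP. In the cytosol many of these genes are induced through heat shock factor, and in the endoplasmic reticulum through the unfolded protein response.

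The promoters carry the known response elements of both systems for a few of the genes, and these are shown because the ratios of their genes are compared below. RefSeq (build GRCm38.p6) gave a promoter for 40 of the 49 genes, from 250 bases before to 50 bases after the start of transcription, and both strands were searched. The endoplasmic reticulum stress element, CCAAT and CCACG with 9 bases of any kind between them, was in 3 of the 40 genes, against 0.137% of all 27025 genes with a promoter. A heat shock element of 3 units, GAA, TTC and GAA with 2 bases of any kind between neighbours, was also in 3 of 40, against 0.662% of all genes. Its first pair of units, GAANNTTC, overlaps it and was in 6 of 40, against 9.04% of all genes. A second endoplasmic reticulum stress element, ATTGG and CCACG with 1 base of any kind between them, was in 1 of 40, Dnajb11, just after the start, against 0.0444% of all genes. A gene counts once if any of its promoters holds the letters. Capitals mark the matches, 5′ to 3′ in the sense of the gene. The 3 stretches with the stress element lie at chr10:86705513-86705676 on the minus strand (Hsp90b1, with a match on each strand), chr14:118937807-118937865 on the plus strand (Dnajc3) and chr12:17266471-17266529 on the plus strand (Pdia6). The stretches with the heat shock element before the start lie at chr1:55088039-55088096 on the minus strand (Hspd1, with overlapping matches on both strands) and chr5:29735832-29735884 on the plus strand (Dnajb6), and the third gene, Hsph1, has it after the start.
Hsp90b1: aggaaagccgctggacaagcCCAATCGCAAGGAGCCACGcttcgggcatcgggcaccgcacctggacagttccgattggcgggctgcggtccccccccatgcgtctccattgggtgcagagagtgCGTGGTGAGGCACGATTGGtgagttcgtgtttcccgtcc
Dnajc3: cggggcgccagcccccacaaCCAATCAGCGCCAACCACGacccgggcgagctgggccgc
Pdia6: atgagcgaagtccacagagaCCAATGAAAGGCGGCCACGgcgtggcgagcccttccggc
Hspd1: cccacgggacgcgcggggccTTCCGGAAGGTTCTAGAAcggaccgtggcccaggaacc
Dnajb6: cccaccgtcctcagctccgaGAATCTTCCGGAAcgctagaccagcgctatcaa

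A usable spot had signal above 0 and no saturation in both channels, which held for 14.8% to 83.0% of the spots of an array. Of the 49 genes 45 had a value in some replicate, and Dnajc4, Hspa12b, Hspb7 and Pdia5 had none. There were 287 of 441 possible values, from -1.46 to 1.31 on the log2 scale. Testing at a given time needed a value from each of the 3 replicates, which held for 6 chaperone genes at 18 h, 22 at 72 h and 22 at 192 h. Only Cct7 was tested at all 3 times, 17 genes were tested at 2 times, 13 at 1 and 18 at none. Counts over tested genes therefore describe the members with complete values at that time, not all 49. The log2 ratios of 18 h replicate 3 spread more widely than those of any other replicate, and the 18 h values that turned sign without it are given further on. Of 16 genes of hypothalamic peptides and regulators 12 were on the arrays and 11 had a value. No blood gene of the marker list was on the arrays.

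**Figure D1:**
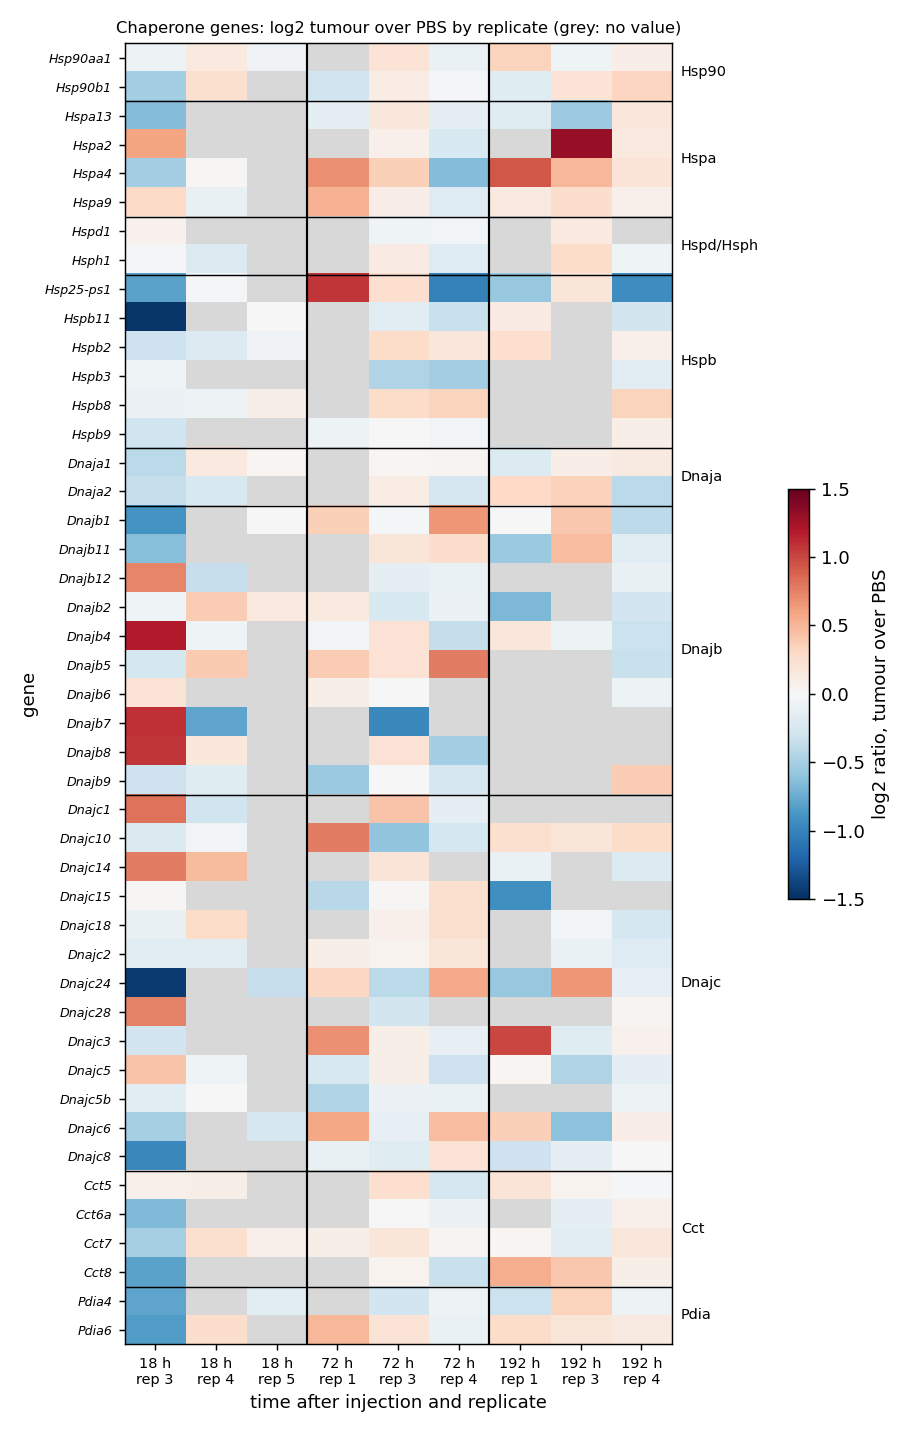
Log2 ratio of tumour over PBS (colour) for the 45 chaperone genes with a value (rows, by family) in each of the 9 replicates (columns, by time after injection). Grey cells have no value, 18 h replicate 3 holds both the lowest values, of Hspb11 and Dnajc24, and several of the highest, and no family keeps 1 colour across a time.

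No chaperone gene passed the test at any time (limma, adjusted p 0.05), and neither did any other gene, so the share called was 0% at 18, 72 and 192 h. At 18 h no chaperone gene of 6 had an unadjusted p under 0.05, against 86 of 1441 genes (5.97%). At 72 h it was 1 of 22, Dnajb5, against 199 of 3593 genes (5.54%), and at 192 h 1 of 22, Hspa4, against 91 of 3276 genes (2.78%). The median log2 ratio of the tested members was -0.04 at 18 h, 0.04 at 72 h and 0.01 at 192 h. Over all genes tested the medians were -0.09, 0.02 and -0.0020. Of the members 2 of 6, 11 of 22 and 13 of 22 lay above 0, where 31%, 53.9% and 49.4% of all genes did. Over all genes tested, standard errors of the log2 ratio had a median of 0.17, 0.17 and 0.18 at the 3 times.

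Hspa genes encode the Hsp70 proteins and their relatives, and the largest mean of any tested chaperone gene was that of Hspa4 at 192 h. Hspa4 encodes a protein of the Hsp110 group, an exchange factor of Hsp70. Its log2 ratios at 192 h were 0.93, 0.50 and 0.19 in replicates 1, 3 and 4. All 3 lay above 0, with a mean of 0.54 ± 0.37 (SD, n = 3), a 1.45-fold difference (limma, unadjusted p 0.0423, adjusted p 0.9999). At 72 h the same gene had 0.68, 0.35 and -0.65 in replicates 1, 3 and 4, so the replicates lay on both sides of 0. Each of these is from 1 array, with tumour in Cy5 in replicates 1 and 3 and in Cy3 in replicate 4. The subtracted dye effect of -0.31 raised the former and lowered the latter. At 18 h it had 2 values, -0.51 in replicate 3 and 0.01 in replicate 4. Without the dye subtraction the 192 h mean was 0.435. The highest value at 192 h came from the replicate of poly(A) RNA with 1 array, with tumour in Cy5. Without it the mean was 0.34 over replicates 3 and 4, and on the array print of replicate 4 alone it was 0.19. With print as a term of the fit it was 0.27, and in the authors' deposited value table it was 0.03, on a log scale of unknown base.

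Hspa9, which encodes the Hsp70 of mitochondria, had the narrowest spread of the Hspa genes at 192 h. Its log2 ratios were 0.15, 0.26 and 0.07 in replicates 1, 3 and 4 at 192 h, above 0 in all of them. The mean was 0.16 ± 0.10 (SD, n = 3; limma, unadjusted p 0.353). At 72 h the ratios were 0.53, 0.09 and -0.20, and at 18 h 0.29 in replicate 3 and -0.11 in replicate 4, on both sides of 0 at each time. Hspa13, which encodes a short Hsp70 relative of microsomes, had means of -0.04 ± 0.18 at 72 h and -0.19 ± 0.36 at 192 h. Hspa2, best known from testis, reached no test and held the highest single value of all chaperone genes, 1.31 in 192 h replicate 3, from 1 array, beside 0.14 in replicate 4.

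Of the Hsp90 genes, Hsp90aa1 encodes the inducible cytosolic form and Hsp90b1 the form of the endoplasmic reticulum. The log2 ratios of Hsp90aa1 at 18 h were -0.08, 0.15 and -0.06 in replicates 3, 4 and 5. At 192 h they were 0.33, -0.06 and 0.10 in replicates 1, 3 and 4. Both sets straddled 0, with means of 0.0035 ± 0.12 and 0.12 ± 0.20 (SD, n = 3), and at 72 h the gene had 0.21 and -0.10 in replicates 3 and 4. Hsp90b1 had -0.30, 0.11 and -0.02 at 72 h and -0.19, 0.21 and 0.32 at 192 h in replicates 1, 3 and 4. The replicates of neither time shared a sign.

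Hsph1, the Hsp110 gene, and Hspd1, which encodes the chaperonin of mitochondria, reached no test. Hsph1 had 6 values between -0.20 and 0.27, and Hspd1 had 4 values between -0.06 and 0.15. For Hsph1 they were -0.02 and -0.20 in 18 h replicates 3 and 4, 0.12 and -0.20 in 72 h replicates 3 and 4, and 0.27 and -0.07 in 192 h replicates 3 and 4. The values of each gene lay on both sides of 0.

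Among the small heat shock protein genes, Hspb2 and Hspb8 were tested at 18 h. Hspb2, a gene of muscle and heart, had -0.32, -0.21 and -0.05 in replicates 3, 4 and 5 at 18 h. It was the only chaperone gene of the 6 that lay below 0 in every replicate, as did 19.6% of all genes tested at 18 h, and its mean was -0.19 ± 0.13 (SD, n = 3; limma, adjusted p 0.809). The single arrays did not share that sign. With tumour in Cy5 and in Cy3 they stood at 0.15 and -0.57 in replicate 4, and at -0.23 and 0.12 in replicate 5. The 4 values of Hspb2 at the later times lay between 0.08 and 0.28, but were too few for a test at either time. Hspb8, whose protein works with the cochaperone Bag3, had -0.09, -0.07 and 0.09 at 18 h, and 0.27 and 0.33 in the 2 replicates measured at 72 h and 0.33 in the 1 measured at 192 h. The 18 h means of both genes had the other sign, at 0.0092 and 0.02, in the authors' deposited value table.

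Hsp25-ps1 had the largest negative mean of the tested members at 192 h and their widest spread at 72 h. Its log2 ratios at 192 h were -0.57, 0.19 and -0.93 in replicates 1, 3 and 4, with a mean of -0.44 ± 0.57 (SD, n = 3; limma, unadjusted p 0.203). With dye orientation as a covariate the mean was -0.29, without replicate 3 -0.75 and without replicate 4 -0.19. With print as a term of the fit, an alternative chosen after seeing the data, it was -0.69. Each replicate at 192 h was on its own print, so that term cannot separate print from replicate there. At 72 h the log2 ratios were 1.08, 0.25 and -1.02 in replicates 1, 3 and 4, and at 18 h -0.81 and -0.01 in replicates 3 and 4. Its dye effect, the mean ratio of Cy5 over Cy3 whichever sample carried the dye, was -1.08 on the log2 scale, and it rests on 2 replicates. At 72 and 192 h replicate 1 was read on 1 array with tumour in Cy5 and replicate 4 on 1 with tumour in Cy3. Subtracting the dye effect raised the first and lowered the second by 1.08. This is about the size of their 72 h values, so the spread at 72 h depends on the subtraction. On the arrays of 192 h replicate 3 the gene stood at 2.14 with tumour in Cy5 and at -1.77 with tumour in Cy3, when the dye effect was taken from the other replicates. In 72 h replicate 3 the arrays stood at -1.71 and 2.21. The arrays of each pair thus lay on opposite sides of 0. These replicates are the 2 behind the dye effect, so each pair was corrected with the dye effect of the other. The pairs therefore show 1 disagreement between replicates, not 2 separate ones.

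J-domain proteins of the Dnaja and Dnajb families deliver unfolded proteins to Hsp70. Dnajb5 had the smallest p of all chaperone genes in these comparisons. Its log2 ratios at 72 h were 0.38, 0.22 and 0.76 in replicates 1, 3 and 4. All lay above 0, with a mean of 0.45 ± 0.28 (SD, n = 3), a 1.37-fold difference (limma, unadjusted p 0.0339, adjusted p 0.811). At 18 h the gene had -0.26 and 0.39 in replicates 3 and 4, and at 192 h -0.33 in replicate 4, the 1 value there. The values of replicates 1 and 4 at 72 h come from 1 array each with tumour in Cy5, and the dye effect subtracted from them, -0.30, rests on 1 replicate. Without this subtraction the mean was 0.25, with dye orientation as a covariate 0.30, without replicate 4 also 0.30, and with normexp background correction 0.94. In the authors' deposited value table it was 0.08.

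Dnajb1, the main heat-inducible J-domain gene, had 0.36, -0.02 and 0.65 at 72 h in replicates 1, 3 and 4. Its values at 192 h were -0.0035, 0.40 and -0.39 in those replicates. The first set leaned above 0 with a mean of 0.33 ± 0.34 (SD, n = 3), and the second was centred on 0 at 0.0025 ± 0.39. At 72 h the mean was 0.17 without replicate 4 and 0.51 without replicate 3. Dnajb9, which encodes a J-domain protein of the endoplasmic reticulum, lay below 0 in every replicate at 72 h, at -0.55, -0.0033 and -0.25, with a mean of -0.27 ± 0.27. Without replicate 1, of poly(A) RNA on 1 array, it was -0.13. At 192 h its 1 value was 0.39. Dnajb2, a J-domain gene of neurons, had -0.06, 0.38 and 0.15 at 18 h in replicates 3, 4 and 5, and 0.15, -0.22 and -0.09 at 72 h. The replicates overlapped between these times, and the 18 h mean of 0.15 was 0.04 without replicate 4 and 0.26 without replicate 3.

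Dnaja1, which encodes a cochaperone of cytosolic Hsp70, had -0.40, 0.14 and 0.03 at 18 h in replicates 3, 4 and 5. At 192 h it had -0.20, 0.10 and 0.14 in replicates 1, 3 and 4. In each set 1 replicate stood below 0 and the other two above it, and the means were -0.08 ± 0.29 and 0.0097 ± 0.19. Dnajb4 had -0.04, 0.22 and -0.35 at 72 h and 0.17, -0.07 and -0.33 at 192 h in replicates 1, 3 and 4. Its 18 h values were 1.19 in replicate 3 and -0.06 in replicate 4, so its largest value again belonged to 18 h replicate 3.

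The Dnajc family joins J domains to many other tasks, and 9 of its members were tested at 72 h and 6 at 192 h. At 72 h 4 of 9 lay above 0 with a family median of -0.03, and at 192 h 2 of 6 with a median of -0.03. Dnajc6, which encodes auxilin, the neuronal cofactor that uncoats clathrin vesicles, had 0.57, -0.12 and 0.46 at 72 h in replicates 1, 3 and 4. At 192 h it had 0.35, -0.61 and 0.10 in those replicates, and replicate 3 was the lowest at both times. The 72 h mean of 0.30 was 0.17 without replicate 1 and 0.52 without replicate 3. Dnajc5, the gene of cysteine string protein of synaptic vesicles, had -0.25, 0.09 and -0.31 at 72 h and 0.03, -0.45 and -0.15 at 192 h. Its means were -0.15 ± 0.22 and -0.19 ± 0.25 (SD, n = 3), each with 1 replicate above 0, and the second was -0.06 without replicate 3 and -0.30 without replicate 1. Its relative Dnajc5b, mainly known from testis, lay below 0 in all 6 of its values, from -0.45 to -0.01, with a 72 h mean of -0.21 ± 0.21 that was -0.09 without replicate 1.

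Dnajc3, whose protein inhibits the kinase PERK and assists folding in the endoplasmic reticulum, showed how much a single replicate can weigh. Its log2 ratios were 0.69, 0.08 and -0.12 at 72 h and 1.00, -0.18 and 0.07 at 192 h in replicates 1, 3 and 4. At both times replicate 1, of poly(A) RNA on 1 array with tumour in Cy5, was the highest, and the dye effect subtracted there was -0.28. The 192 h mean was 0.30 ± 0.62, and without replicate 1 it was -0.06. Dnajc10, a reductase of the endoplasmic reticulum, had 0.24, 0.18 and 0.27 at 192 h, a narrow set above 0. Its mean was 0.23 ± 0.04, with a fitted standard error of 0.22 (limma, unadjusted p 0.307). At 72 h the values of Dnajc10 ran from -0.60 to 0.76. Dnajc24, a gene of diphthamide synthesis, was read by a pair of probes. They stood at -1.44 and -0.44 in 18 h replicate 3 and at 0.31 and -0.54 in 72 h replicate 1, and the first of them, the brighter, was used. The probes of Dnajc1 shared values in 1 replicate, 72 h replicate 3, at 0.43 and -0.12.

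Cct7, a subunit of the cytosolic chaperonin, was the 1 chaperone gene with a value in all 9 replicates. It had -0.50, 0.24 and 0.08 at 18 h, 0.08, 0.18 and 0.04 at 72 h, and 0.03, -0.16 and 0.17 at 192 h. Only at 72 h did all replicates share a sign, and the mean over the 3 times was 0.02 with a standard error of 0.09 (limma, unadjusted p 0.853; 23 of 737 genes, 3.12%, had one under 0.05). Cct8, another subunit, had 0.55, 0.40 and 0.09 at 192 h in replicates 1, 3 and 4, all above 0. Its mean was 0.35 ± 0.23 (SD, n = 3), a 1.27-fold difference (limma, unadjusted p 0.0642). With print as a term of the fit it was 0.21, and in the authors' deposited value table it was 0.06. In 18 h replicate 3 it stood at -0.80, and at 72 h it had 0.06 and -0.34 in replicates 3 and 4. Cct5 had 0.07 ± 0.11 at 192 h, and Cct6a had 5 values between -0.67 and 0.08.

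Of the disulfide isomerases, Pdia6 had 0.27, 0.18 and 0.13 at 192 h in replicates 1, 3 and 4. These lay close together above 0, with a mean of 0.20 ± 0.07 and a fitted standard error of 0.20 (limma, unadjusted p 0.348). At 72 h it had 0.50, 0.20 and -0.10, and at 18 h -0.84 in replicate 3 and 0.27 in replicate 4. Pdia4 had -0.32, 0.33 and -0.08 at 192 h. The 3 genes with the stress element printed above each had their lowest value in 18 h replicate 3, at -0.51 for Hsp90b1, -0.28 for Dnajc3 and -0.84 for Pdia6, as did 17 of all 45 measured members. Their means at 192 h were 0.11, 0.30 and 0.20, none past the test. Dnajb11, with the second stress element, encodes a J-domain protein of the endoplasmic reticulum and had -0.56, 0.47 and -0.17 at 192 h in replicates 1, 3 and 4. Its mean was -0.09 ± 0.52, and its lowest value, -0.64, was also in 18 h replicate 3. Of the genes with the heat shock element before the start, Hspd1 had no value beyond 0.15 in size and Dnajb6 none beyond 0.20.

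**Figure D2:**
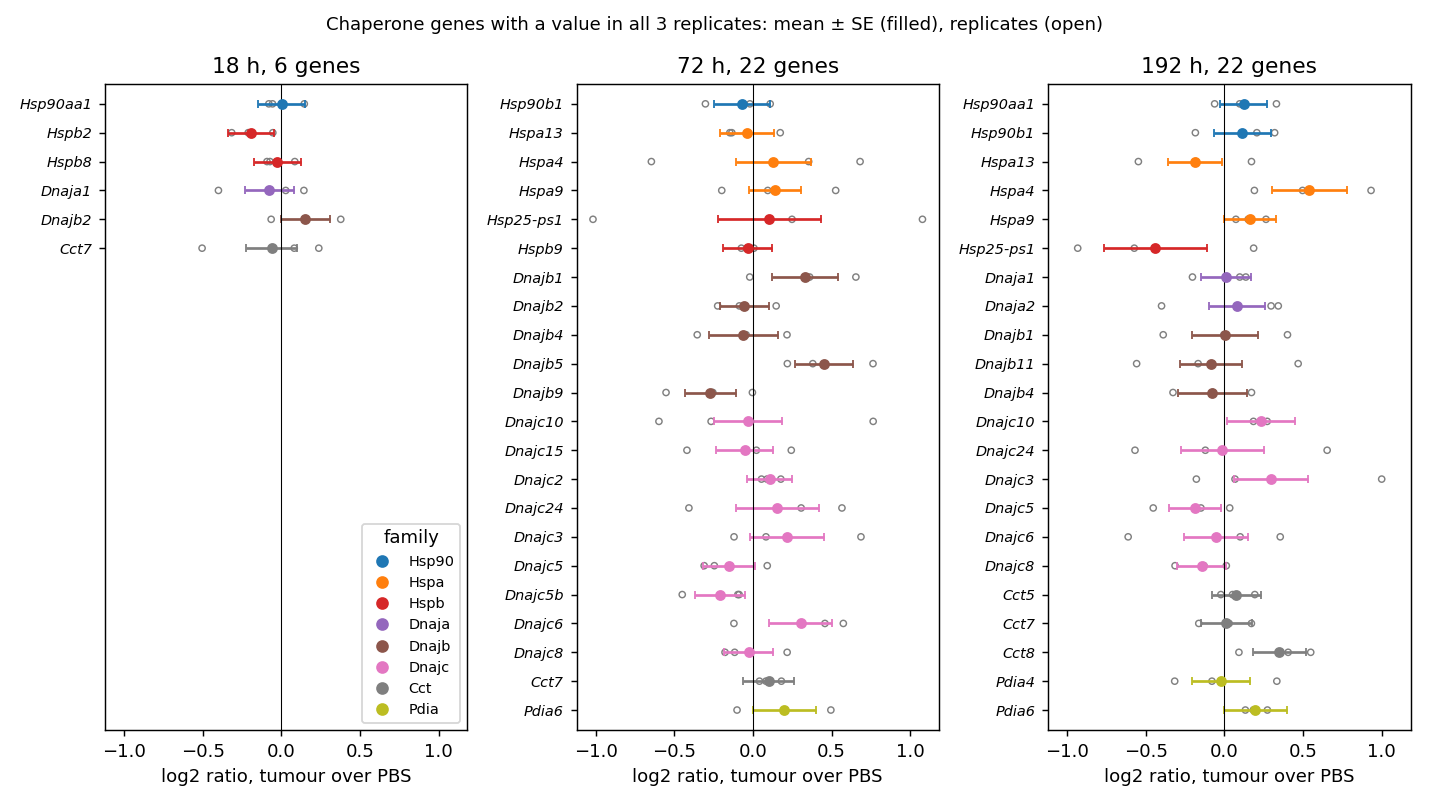
Log2 ratio of tumour over PBS of the chaperone genes with a value in all 3 replicates at 18, 72 and 192 h (panels), with means and standard errors as filled points and bars coloured by family and replicates as open circles. Replicates lie on both sides of 0 for most genes, and Dnajb5 at 72 h and Hspa4 at 192 h have the largest means.

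Genes with 1 sign in every replicate were counted at each time against all genes. At 192 h 5 of 22 chaperone genes lay above 0 in every replicate, namely Hspa4, Hspa9, Cct8, Dnajc10 and Pdia6, as did 11.8% of all genes tested. None lay below 0 in every replicate, against 12.7% of all genes. At 72 h 3 of 22 lay above 0 throughout, Dnajb5, Dnajc2 and Cct7, against 15% of all genes, and Dnajb9 and Dnajc5b lay below, against 11.9%. At 18 h none of 6 lay above 0 in every replicate, against 6.18%. All 5 of the genes above 0 throughout at 192 h had values on both sides of 0 at 72 h.

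Differences between the times were fitted in the same model, and no chaperone gene passed (limma, share called 0% in each). For 192 against 72 h 15 chaperone genes could be compared, none with an unadjusted p under 0.05, against 43 of 1892 genes (2.27%). The 3 of smallest p were Dnajc6 at -0.36 with a standard error of 0.29, Hspa4 at 0.41 with 0.34 and Hsp25-ps1 at -0.54 with 0.46. All 3 moved when single replicates were left out. Dnajc6 differed by -0.08 without 192 h replicate 3 and by -0.57 without 72 h replicate 3, and Hspa4 by 0.02 without 72 h replicate 4 and by 0.68 without 72 h replicate 1. Hsp25-ps1 differed by -0.06 without 72 h replicate 1 and by -1.10 without 72 h replicate 4 (limma, unadjusted p 0.0176). Those replicates of Hsp25-ps1 are 1 array each, of opposite dye orientation. Leaving out either one therefore unbalances its subtracted dye effect of -1.08, and the swing cannot be read as the weight of a replicate alone. The 72 h values of Hspa4 are also from 1 array each, not all of the same orientation. The median difference over the 15 was -0.04, and over all genes -0.08. For 72 against 18 h Dnajb2 differed by -0.21 with a standard error of 0.22 and Cct7 by 0.16 with 0.23, where 52 of 998 genes (5.21%) had an unadjusted p under 0.05. Without 18 h replicate 4 the difference of Dnajb2 was -0.10, and without 18 h replicate 3 it was -0.32. For 192 against 18 h Hsp90aa1, Dnaja1 and Cct7 differed by 0.12, 0.09 and 0.07 with standard errors of 0.21 to 0.23, where 33 of 973 genes (3.39%) had an unadjusted p under 0.05.

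One replicate stood apart in its spread. In 18 h replicate 3 the log2 ratios of all genes had an SD of 0.56, against 0.30 to 0.44 in the other 8 replicates. Of its 45 chaperone values 31 (68.9%) lay below 0, against 54% of all 7363 genes, and the median was -0.22 against -0.05. The share below 0 was not particular to it. In 72 h replicate 4, 28 of 41 chaperone values (68.3%) lay below 0, against 52.4% of all genes. In 18 h replicate 3 values under -0.5 were found for 15 chaperone genes (17.7% of all genes) and above 0.5 for 8 (18.4% of all genes). The lowest were Hspb11, an intraflagellar transport gene, at -1.46, Dnajc24 at -1.44, Dnajc8, found with the spliceosome, at -0.97 and Dnajb1 at -0.90. The highest were Dnajb4 at 1.19, Dnajb7 at 1.09 and Dnajb8 at 1.07. The values of Hspb11, Dnajc24 and Dnajb8 rest on 1 array there, and the dye effect of Dnajb8, 0.36, on 1 replicate. Dnajb7 was read there in both dye orientations, so its dye effect, 0.84, cancels in that value.

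**Figure D3:**
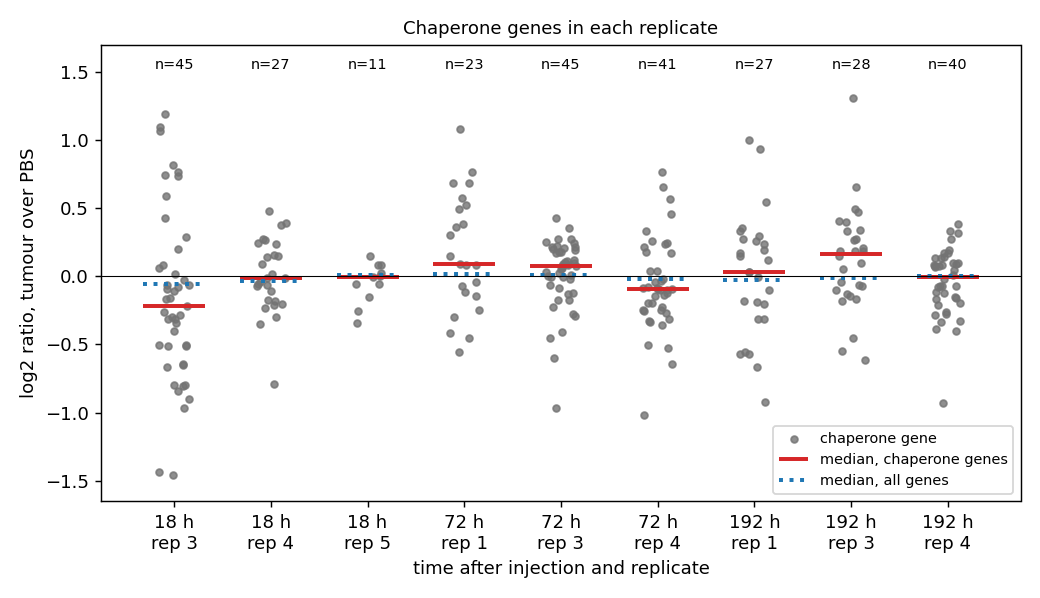
Log2 ratio of tumour over PBS of each measured chaperone gene (grey points) in the 9 replicates, with the median of the chaperone genes (red line) and of all genes (dotted blue line). The spread is widest in 18 h replicate 3, where the median of the chaperone genes is -0.22 and that of all genes -0.05.

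In 18 h replicate 3 the log2 ratios were lower for brighter genes, over all genes and over the chaperone genes. Against the mean intensity of the probe on the other replicates, Spearman's rho was -0.41 over 7355 genes and -0.41 over the 45 chaperone genes, a description across genes that share arrays and are not independent. Among genes brighter than the median of the measured chaperone probes, 17 of 22 chaperone genes and 72.9% of all genes lay below 0. Among dimmer genes it was 14 of 23 and 44%. In the other replicates rho over all genes lay between -0.01 and 0.22. Over the chaperone genes it ran from -0.38 in 192 h replicate 3 to 0.41 in 192 h replicate 1. For these few genes a rho of this size was thus not particular to 18 h replicate 3. Without replicate 3, Dnaja1, Cct7 and Hspb8 turned from below to above 0 at 18 h, to 0.09, 0.16 and 0.0067, and the median over all genes moved from -0.09 to -0.02.

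Arrays with exchanged dyes let a ratio be read a second time within a replicate, with the dye effect taken from the other replicates. Over all genes the correlation between the arrays was 0.31 in 18 h replicate 3 and between -0.58 and -0.11 in the other 6 replicates with both orientations. Error of the subtracted dye effect enters the arrays with opposite sign and lowers these correlations. Over chaperone genes it was 0.49 in 18 h replicate 3 (33 genes, of which 24 had the same sign on both arrays and 18 were below 0 on both). In 72 h replicate 4 it was 0.47 over 22 genes, with 15 of the same sign, and in 192 h replicate 4 0.05 over 31 genes. In 18 h replicates 4 and 5 it was -0.29 and -0.70, over 15 and 8 genes. In 72 h replicate 3 it was -0.80, and -0.59 without Hsp25-ps1, and in 192 h replicate 3 it was -0.56, and 0.34 without that gene.

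**Figure D4:**
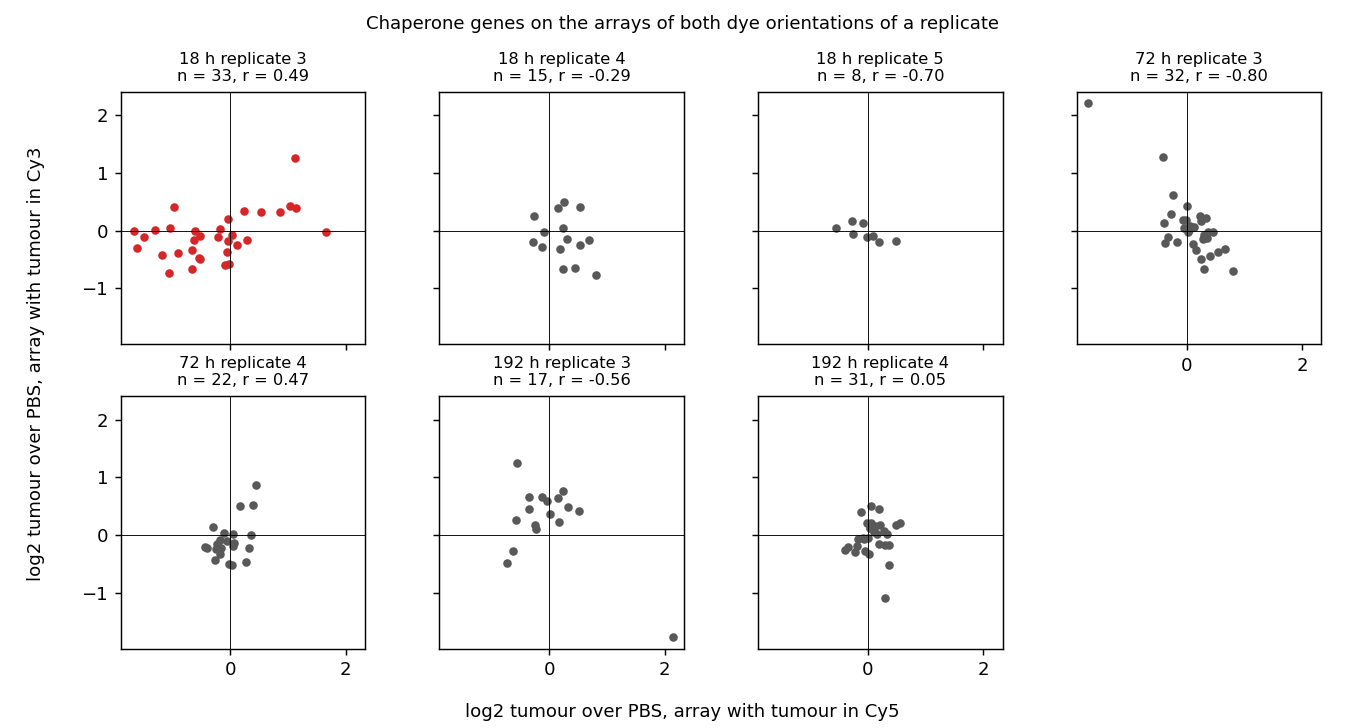
Log2 ratio of tumour over PBS of each chaperone gene on the array with tumour in Cy5 (horizontal) and on the array with tumour in Cy3 (vertical), for the 7 replicates with both orientations and with the dye effect taken from the other replicates. Points run from lower left to upper right in 18 h replicate 3 (red, r = 0.49) and 72 h replicate 4 (r = 0.47), and the far points of 72 h and 192 h replicate 3 are Hsp25-ps1.

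Other chaperone and stress-response genes outside the naming rule were taken from a list of 73, of which 39 were on the arrays and 37 had a value. None passed the test at 18 h (5 tested, 1 above 0, median -0.10), 72 h (16 tested, 10 above 0, median 0.05) or 192 h (22 tested, 15 above 0, median 0.06). An unadjusted p under 0.05 was found for 1 gene at 18 h, 1 at 72 h and none at 192 h. Bag5, which encodes a regulator of Hsp70, had the smallest p at 18 h. Its log2 ratios were -1.35, -0.41 and 0.02 in replicates 3, 4 and 5, a mean of -0.58 ± 0.70 (SD). Cryab, the gene of the small heat shock protein alpha-B crystallin, which is abundant in oligodendrocytes, had the smallest at 72 h. Its log2 ratios there were -0.21, -0.62 and -0.85 in replicates 1, 3 and 4, a mean of -0.56 ± 0.32, and its mean at 192 h was 0.08 ± 0.52. Bag1, another Hsp70 regulator, had 0.36 ± 0.43 and Lonp1, a protease of mitochondria, 0.35 ± 0.31 at 192 h. Calr, the gene of calreticulin, had 0.11 ± 0.03 at 18 h and 0.11 ± 0.12 at 72 h.

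Markers of cell types were measured beside these genes, and none passed the test at any time. At 192 h the 4 oligodendrocyte and myelin markers on the arrays lay above 0 with means of 0.11 to 0.35, and their mean was 0.46 in replicate 1, 0.10 in replicate 3 and 0.08 in replicate 4. The means of neuronal markers and hypothalamic genes were also highest in replicate 1, at 0.25 and 0.24, while those of astrocyte and microglia markers were not. Of the members tested at that time, Hspa4, Hsp90aa1, Cct5, Cct8, Dnajb4, Dnajc3, Dnajc5, Dnajc6 and Pdia6 were highest in replicate 1. The rest, such as Hspa9, Dnajc10 and Hsp90b1, were highest in another replicate. The part of any cell type in these values was not tested. Neuronal markers were above 0 for 4 of 6 at 72 h and 3 of 4 at 192 h, and both tested astrocyte markers were above 0 at these times. Of 7 microglia and macrophage markers with a value 1 was tested at 72 h, at -0.01, and 2 at 192 h, at -0.18 and 0.10. The 1 endothelial or mural marker and the 1 choroid plexus or ependymal marker tested at 192 h stood at -0.09 and 0.19. At 18 h 1 neuronal and 1 astrocyte marker were tested, at 0.03 and -0.15. Hypothalamic genes were above 0 for 1 of 2 at 18 h, 2 of 5 at 72 h and 5 of 7 at 192 h.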

How the data were processed

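Hypothalamus RNA was measured on 2-colour arrays of 10080 spots, each scanned 3 times. The authors deposited an intensity per spot and channel, corrected for local background per the file headers, and a saturation factor, a fraction, per spot. The deposited value tables hold a log ratio of unstated base, treated as a score. Cy3 comes before Cy5 in the labels, channel A before B in the scanner files, and the same order is assumed. The number of arrays limits the precision.

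The ratios came from R 4.3.3 and limma 3.58.1. A spot was kept where both channels gave a signal above 0 and none was saturated, loess (span 0.3, 4 iterations) was applied within every scan, and scans were averaged. From each ratio the probe's dye effect was subtracted, estimated from up to 7 replicates with both orientations (SD 0.30 over 7938 probes). The brightest probe stood for a gene. Empirical Bayes fits by limma gave 1 mean per time over 5184 genes, with two-sided p-values adjusted by Benjamini-Hochberg over all genes tested in a comparison. Values are means ± SD.

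The arrays were of 5 prints. Intensities matched by name correlated at 0.56 to 0.64 among prints 3, 4 and 5, although 33 of 8215 spots share a name between prints 4 and 5. Prints 1 and 2, with 13 of the 29 arrays, correlated at 0.05 to 0.18 with these and were not used. For names at 2 places on a print, the correlation between places was 0.07 on print 3, 0.15 on print 4 and 0.47 on print 5, which limits how far a probe's name can be trusted. All 18 h replicates were on print 5, 72 h replicate 1 was on print 4 and the others on print 5, and 192 h replicates 1, 3 and 4 were on prints 3, 4 and 5, so print and replicate cannot be told apart at 192 h. Replicate 1 was of poly(A) RNA at both times, and all other replicates were of total RNA.

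Genes given in full were the 5 of smallest p per time, the 3 of smallest p per contrast, the member of each family with the most values and those with more than 1 probe. The genes, lists and this rule were chosen with earlier results of these data known. Alternatives changed background, normalization, dye treatment, scans, filters, probes, print, the authors' table and the replicates used. On simulated ratios a log2 change of 1 was found for 89% of changed genes at 18 h, 77% at 72 h and 74.5% at 192 h. Of the genes called there, 3.78%, 4.94% and 6.88% were false. At each time 200 genes were changed, among 1441, 3593 and 3276 tested, so the times are not comparable. The largest mean of a tested chaperone gene was 0.54, and recovery of changes of that size was not simulated.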

Additional observations from a re-analysis of the deposited data

How the results depend on the processing

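No chaperone gene passed the test under any of 22 alternative settings (smallest adjusted p 0.428 by limma). Of 512 recomputed values 489 kept their direction or stayed near the value reported. They include the numbers of genes called, 0 throughout, and values that a setting left unchanged, so the count does not measure stability. They also include medians near 0 that changed sign. The 18 h median, for example, went from -0.0436 to 0.0653 without 18 h replicate 3. With median centring in place of loess the median of the tested members was -0.23 at 18 h, where that of all genes was -0.16. At 192 h it was 0.11, against -0.0032 for all genes. For 192 against 18 h it was 0.46 over 3 members, against 0.16 for all genes. With the best scan alone it was 0.0805 at 192 h. Leaving out 1 replicate at a time gave a median from -0.21 to 0.0653 at 18 h, -0.0184 to 0.0721 at 72 h and -0.0196 to 0.0456 at 192 h. For 72 against 18 h the median ran from -0.19 to 0.68. The last was without 18 h replicate 4, where 5 genes in place of 2 could be compared and the median of all genes was 0.17. The members' median ran from -0.0760 to 0.33 for 192 against 18 h and from -0.12 to 0.0296 for 192 against 72 h. For the mean of the 3 times it ran from -0.0403 to 0.0914. Single genes turned sign as follows, and the cause was not tested. Cct7 at 18 h stood at 0.0395 with median centring and 0.0838 with the best scan, Dnaja1 at 0.0782 and Dnajb2 at -0.0235 with the best scan. In the authors' deposited value table Dnajb2 was at -0.0599, Hspb2 at 0.0092 and Hspb8 at 0.0227 at 18 h, and Dnajb2 differed by 0.14 for 72 against 18 h. Dnajc3 at 192 h was at -0.0049 with print as a term, an alternative chosen after seeing the data. With 1 replicate left out, Cct7 at 18 h ran from -0.21 to 0.16, Dnaja1 from -0.19 to 0.0857 and Hspb8 from -0.0817 to 0.0067, each highest without 18 h replicate 3. Dnajc3 at 192 h ran from -0.0560, without replicate 1, to 0.53. Without 18 h replicate 3 Cct7 differed by -0.0582 for 72 against 18 h (up to 0.31 without another) and by -0.15 for 192 against 18 h (up to 0.22), and Dnaja1 by -0.0760 for the latter (up to 0.20). Without 192 h replicate 4 Cct7 differed by -0.0058 there. The labels do not say whether same-numbered replicates pair across times. Deviations from the time means correlated at -0.08 to 0.18 between same-numbered replicates and at -0.21 to 0.10 between others. Correlations this weak cannot decide whether samples were paired. With the replicate block Hsp90aa1 differed by -0.0163 for 192 against 18 h. The median difference with the replicate block was 0.15 for 192 against 18 h, -0.0019 for 72 against 18 h and -0.25 over 4 genes for 192 against 72 h, and no call changed. Among all genes 2 passed at 72 h on replicates with both dye orientations, also chosen after seeing the data, and 1 without 72 h replicate 3.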
